A study of Mus musculus with 8 samples.

Results

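The aquaporins described here are the water and glycerol channels of the mouse kidney, Aqp1, Aqp7, Aqp8 and Aqp11 of the proximal tubule, Aqp2, Aqp3 and Aqp4 of the principal cells of the collecting duct, and Aqp6 of its intercalated cells. All probes whose platform annotation carries 1 of these 8 symbols were taken, which gave 15 of the 25697 probes and 8 of the 16593 named genes on the array. Total RNA of 4 kidney tumors and of 4 control kidneys was hybridised to single-colour Illumina bead arrays, with 1 array a sample. The tumors came from mice with a Lin28 transgene and are labelled Wilms tumors, a childhood kidney cancer whose tissue resembles the embryonic kidney; the Lin28 protein binds RNA and keeps let-7 microRNAs from maturing. Tumor 1 was taken at 5 weeks and tumors 2 to 4 at 4 months, control 1 at 5 weeks and controls 2 to 4 at 4 months. The samples are labelled biological replicates. Not given in the sources used here are the promoter or Cre that drives the transgene, the genotype of the controls, and the strain and sex of the animals.

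Aquaporins are membrane channels through which water follows osmotic gradients, and a subgroup of them, the aquaglyceroporins, also passes glycerol. In the kidney, the proximal tubule and thin descending limb reabsorb most of the filtered water through Aqp1. The collecting duct sets the final urine volume. There vasopressin, acting on its receptor Avpr2 and cyclic AMP, moves Aqp2 into the apical membrane of principal cells, and water leaves through Aqp3 and Aqp4 on the basolateral side.

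Probes of Aqp1, Aqp7, Aqp11, Aqp2, Aqp3 and Aqp4 were lower in tumors than in control kidneys, and no aquaporin probe was higher. By point estimates that depend on the value added before log2, Aqp4 fell 20.6-fold, against 7.22-fold for the brightest Aqp1 probe, 5.42-fold for Aqp2, 5.08-fold for the brightest Aqp7 probe, 4.24-fold for Aqp11 and 3.35-fold for Aqp3. Against the mean of all controls, tumor 1, the 5-week tumor, kept most of the Aqp1, Aqp7, Aqp11 and Aqp3 signal. By this measure it had 49.0% of the Aqp2 and 7.26% of the Aqp4 signal. Tumor 1 and control 1, the 5-week arrays, read 197.4 and 194.2 for Aqp2, and 33.4 and 294.1 for Aqp4. Aqp8 did not pass the test, and Aqp6 was under background on all 8 arrays.

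Values are background-subtracted intensities on a linear scale, scaled by the authors so that all arrays have the same mean. The test used log2 of the value plus 16, with values below 0 counted as 0, so a fold understates the change of a dim probe. The background limit of an array was 3 times its noise. In limma's test with Benjamini-Hochberg adjustment over all 15418 tested probes and a threshold of 0.05, 11 of the 13 tested aquaporin probes were lower, while 11.5% of all tested probes were lower and 31% were higher. The groups did not overlap for 8 of the 13 aquaporin probes, with tumors lower, against 9.48% of all tested probes. Since these are bulk samples, fewer cells of a type and less RNA per cell cannot be told apart.

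**Figure D1:**
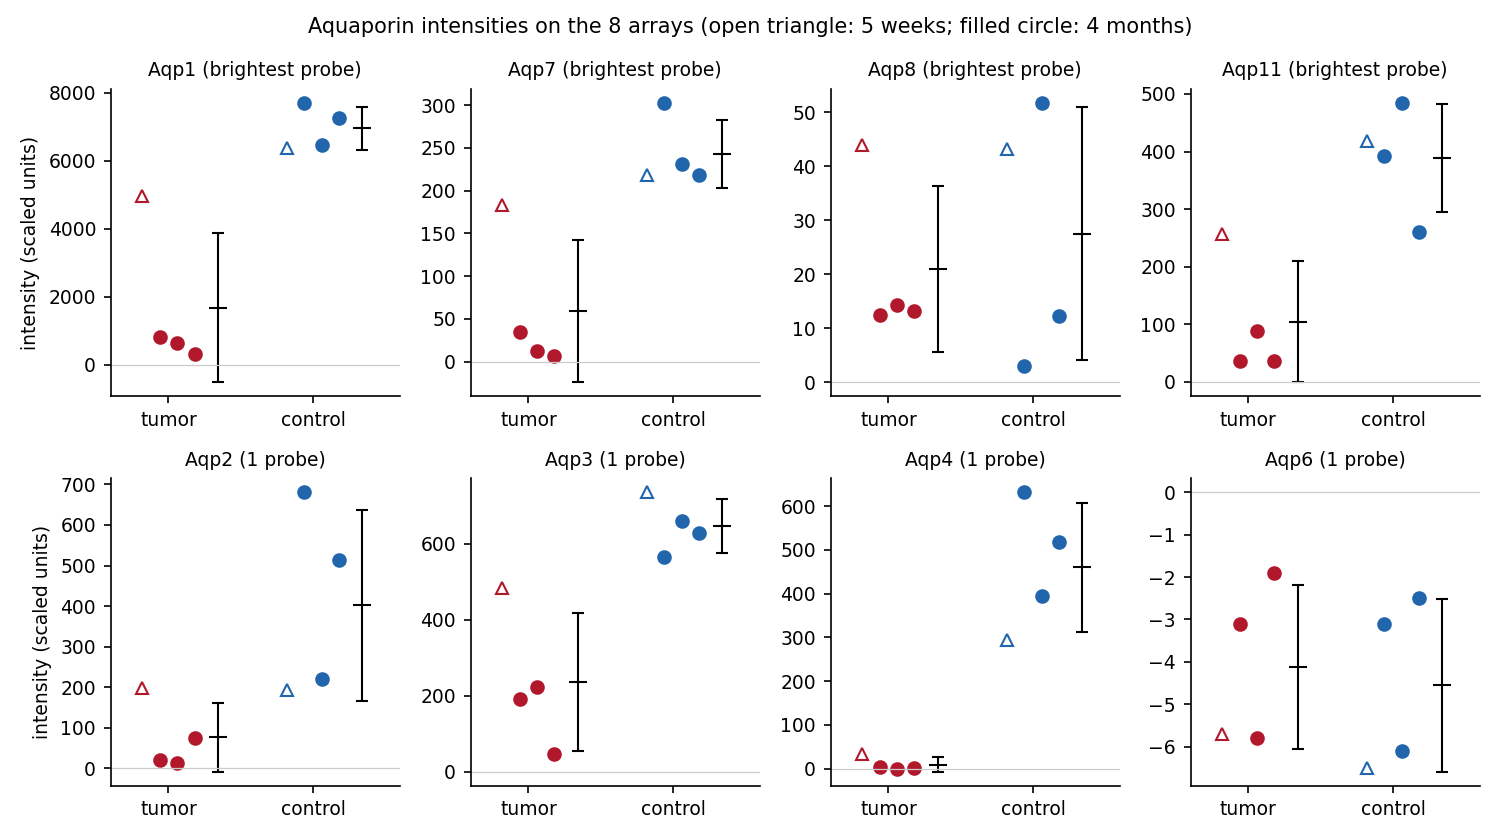
Deposited intensity (linear scale) of the brightest probe of each aquaporin, with tumors left and controls right; points are arrays, the 5-week arrays are marked apart, and bars give the mean ± SD of 4 arrays. Tumors 2 to 4 lie under every control for Aqp1, Aqp7, Aqp11, Aqp2, Aqp3 and Aqp4, Aqp8 overlaps, and Aqp6 stays near 0.

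Between 44.2% (control 1) and 55.3% (tumor 3) of the probes were above background, and 4 arrays a group limit the precision. The noise was 9.19 on tumor 1 and 3.56 to 5.49 on the other arrays, so a value on tumor 1 had to reach 27.6 to count as above background. The median change over all tested probes was 0.33 on the log2 scale, and it was 0.0112 after quantile normalization, 0.0931 after scaling to the same median and -0.0315 after cyclic loess. Of the called probes 72.9% were higher, against 53.4%, 55.1% and 47.9% under those 3 scalings in the same order. The 11 aquaporin probes were lower under all 3. Xist was at 213.2, 155.1, 222.9 and 300.9 in tumors 1 to 4 and at 7.0, 34.8, 2.2 and 8.1 in controls 1 to 4. The Y-linked Kdm5d was not above background in any tumor and read 44.9, -5.6, 44.7 and 53.7 in controls 1 to 4. Xist and Kdm5d thus differed between the groups, except that control 2 lacked Kdm5d signal as the tumors did. The Y-linked Uty overlapped between the groups and was not called (log2 change -0.43, limma adjusted p = 0.281). Eif2s3y, also Y-linked, was not above background on any array. An effect of sex on the aquaporin values cannot be told apart from that of the tumor and was not tested.

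Aqp1 is the constitutive water channel of the proximal tubule and thin descending limb, and it is also made by endothelium and red cells. Its brightest probe read 4959.6 in the 5-week tumor and 813.9, 635.2 and 303.4 in the 4-month tumors, numbers 2 to 4, against 6365.6, 7704.4, 6475.3 and 7268.2 in controls 1 to 4. Tumor 1 was at 71.3% of the control mean and tumors 2 to 4 at 11.7%, 9.14% and 4.36%, so all 4 tumors lay under the lowest control while the controls spanned only 1.21-fold. Tumors averaged 1678 ± 2198 and controls 6953 ± 642 (SD, n = 4 arrays each), a log2 change of -2.85 ± 0.70 (SE; 95% interval -4.44 to -1.27; limma adjusted p = 0.0115). The other two Aqp1 probes fell by 3.05 ± 0.67 (adjusted p = 0.00718) and 3.12 ± 0.69 (adjusted p = 0.00743) in the same limma fit, with no overlap. On the 4-month arrays alone, the brightest probe was 12.8-fold lower (log2 change -3.68, limma adjusted p = 5.87e-04).

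Markers of the other cells that make Aqp1 were read beside it. Of 9 tested endothelial genes 0 were called, and their summed intensity ran from 3235 to 11593 in tumors and from 4533 to 8854 in controls. Of 3 tested erythroid genes 0 were called, with sums of 5740 to 22739 in tumors and 15934 to 21740 in controls. The part of these cells in the Aqp1 values was not tested.

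Aqp7 is an aquaglyceroporin of the last segment of the proximal tubule, where it takes glycerol back from the filtrate, and fat cells make it too. Its brightest probe read 183.3 in the 5-week tumor and 34.3, 12.7 and 6.7 in the 4-month tumors, against 218.5, 302.4, 231.6 and 218.7 in controls 1 to 4. Tumor 1 was just under the lowest control, at 75.5% of the control mean, and tumors 2 to 4 were at 14.1%, 5.23% and 2.76%. The log2 change was -2.34 ± 0.60 (SE, n = 4 each; limma adjusted p = 0.0132), and -3.05 on the 4-month arrays (adjusted p = 7.67e-04).

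The other 3 Aqp7 probes were dimmer and fell too. The second read 124.0, 24.7, 9.4 and -0.4 in tumors 1 to 4 and 182.7 to 225.0 in controls (log2 change -2.50 ± 0.57, limma adjusted p = 0.00851). The third was above background in 1 of 4 tumors and in 4 controls, with 59.2 in tumor 1, -3.9 to 3.1 in the 4-month tumors and 57.5 to 99.8 in controls (-2.03 ± 0.48, limma adjusted p = 0.00985). On this probe tumor 1 lay within the control range, while tumors 2 to 4 had no signal above background. The dimmest was not above background in any tumor and above it in 3 controls (-0.96 ± 0.31, limma adjusted p = 0.0326). That call was lost when any array but tumor 1 or control 1 was left out (adjusted p 0.0515 to 0.0900).

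Fat cell genes stood out in tumor 2, where Adipoq read 1646.8, and the summed adipocyte markers ran from 22.3 to 1972 in tumors and from 4.5 to 247 in controls. The brightest Aqp7 probe read 34.3 in that tumor, the highest of the 4-month tumors, against 12.7 and 6.7 in tumors 3 and 4. The part of fat cells in the Aqp7 values was not tested. Of 3 tested adipocyte genes 0 were called.

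Aqp11 is an unusual aquaporin of the endoplasmic reticulum of proximal tubule cells, and mice without it develop cystic kidneys. Its brighter probe read 257.5 in the 5-week tumor and 35.8, 88.0 and 35.8 in the 4-month tumors, against 417.8, 392.9, 484.4 and 261.2 in controls 1 to 4. All 4 tumors lay under all controls, tumor 1 by only a small margin under control 4. The log2 change was -2.08 ± 0.51 (SE, n = 4 each; limma adjusted p = 0.0110). The second probe was above background on 1 control only and was not tested; it read 22.7 in tumor 1, -3.1 to -2.4 in tumors 2 to 4 and 0.2 to 11.9 in controls.

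Aqp8 passes water and small solutes and sits mostly inside proximal tubule and collecting duct cells. Its brighter probe read 43.9, 12.4, 14.3 and 13.2 in tumors 1 to 4 and 43.1, 3.1, 51.7 and 12.3 in controls 1 to 4. It was above background in 3 tumors and 3 controls, and the groups overlapped throughout. The log2 difference was -0.13 ± 0.44 (95% interval -1.12 to 0.85; limma adjusted p = 0.831), an interval that holds a fall or a rise of moderate size. The second probe gave -0.72 ± 0.43 (limma adjusted p = 0.205) and was above background on 0 tumors and 2 controls. Both Aqp8 probes were high on controls 1 and 3 and low on controls 2 and 4.

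The promoters of Aqp1 and Aqp7 are shown because they belong to proximal aquaporins with several probes that fell together. Each is the 250 bases before the RefSeq start, GRCm38.p6, written along the gene; Aqp1 lies on the plus strand at chr6:55336049-55336298, between Mindy4 and Ghrhr. Aqp7 lies on the minus strand at chr4:41048137-41048386, and the more upstream of its 2 listed starts was used. Capitals mark the motifs found.
Aqp1: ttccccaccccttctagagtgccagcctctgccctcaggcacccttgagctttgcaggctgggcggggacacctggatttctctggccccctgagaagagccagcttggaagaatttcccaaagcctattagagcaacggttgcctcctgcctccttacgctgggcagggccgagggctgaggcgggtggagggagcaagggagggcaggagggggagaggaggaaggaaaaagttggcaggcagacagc
Aqp7: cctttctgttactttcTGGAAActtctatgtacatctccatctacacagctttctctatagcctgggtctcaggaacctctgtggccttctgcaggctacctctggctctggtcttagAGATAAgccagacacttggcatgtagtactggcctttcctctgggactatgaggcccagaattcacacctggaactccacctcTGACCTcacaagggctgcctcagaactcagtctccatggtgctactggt
The letters searched, on both strands, were TATAA (the TATA box), TGACGT (first 6 bases of the cyclic AMP response element), CACGTG (E box), AGATAA (the element of GATA factors), TGGAAA (core of the tonicity element), GTTAAT (HNF1) and AGGTCA (nuclear receptors). The Aqp1 window held none of them. The Aqp7 window held TGGAAA 234 bases, AGATAA 132 bases and AGGTCA (as its reverse complement) 49 bases before the start. Among 32851 RefSeq promoter windows of the same length, TGGAAA was in 18.6%, AGATAA in 9.99% and AGGTCA in 14%. AGGTCA was also in the Aqp11 window, 230 bases before its start, and GTTAAT was in 0 of the 7 aquaporin windows found (those of all members but Aqp4), against 6.43% of all windows.

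Aqp2 is the vasopressin-regulated channel of the apical membrane of principal cells. Its probe read 197.4 in the 5-week tumor and 21.0, 13.6 and 75.6 in the 4-month tumors, against 194.2, 680.6, 221.3 and 514.3 in controls 1 to 4. At 5 weeks tumor 1 and control 1 were level (log2 difference 0.0218), while tumors 2 to 4 lay under all controls. Controls 1 and 3 read low and controls 2 and 4 high. Since control 3 is of 4 months, the low control value was not particular to 5 weeks. The log2 change was -2.44 ± 0.65 (SE, n = 4 each; limma adjusted p = 0.0162), and -3.26 on the 4-month arrays, a 9.56-fold fall (adjusted p = 0.00394). The controls spanned 3.50-fold, the widest control range among the 6 aquaporins that fell. With no filter on dim probes, the Aqp2 call was lost (adjusted p = 0.0565).

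Aqp3 is the basolateral aquaglyceroporin of principal cells. Its probe read 484.2 in the 5-week tumor and 191.4, 221.9 and 45.8 in the 4-month tumors, against 736.3, 565.1, 661.5 and 629.4 in controls 1 to 4. All tumors lay under all controls, and tumor 4 was the lowest by far, at 7.07% of the control mean. The log2 change was -1.74 ± 0.53 (SE, n = 4 each; limma adjusted p = 0.0275). This call was the least stable of the genes that fell: it was lost without tumor 2 (0.0528), tumor 3 (0.0511), control 1 (0.0687), control 3 (0.0632) or control 4 (0.0538), all limma adjusted p, and with no filter (0.0819).

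Aqp4 is the second basolateral water channel of principal cells, found mainly in the inner medulla, and muscle fibres and glia make it as well. Its probe read 33.4 in the 5-week tumor and 2.9, -0.2 and 0.3 in the 4-month tumors, against 294.1, 632.1, 395.8 and 518.1 in controls 1 to 4. It was above background in 1 of 4 tumors and in all controls, and the highest tumor was far under the lowest control. The log2 change was -4.37 ± 0.39 (SE, n = 4 each; limma adjusted p = 1.67e-04), with a range of -4.75 to -4.20 when each array was left out in turn. Because 3 tumors are near 0, the size depends on the value added before log2: it was -5.77 with 4 added and -3.10 with 50 added (limma adjusted p = 7.03e-04 and 1.99e-04). On the 4-month arrays it was -4.94, a 30.7-fold fall (limma adjusted p = 1.45e-04). Its gap between the 5-week arrays was the largest of the 13 tested probes: tumor 1 minus control 1 was -2.65 on the log2 scale, against -0.67 to 0.0218 for the brightest probes of Aqp1, Aqp7, Aqp11, Aqp2 and Aqp3. That gap rests on 1 array of each kind and was not tested.

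Aqp6 is an intracellular anion-conducting aquaporin of acid-secreting intercalated cells. Its single probe read -5.7, -3.1, -5.8 and -1.9 in tumors 1 to 4 and -6.5, -3.1, -6.1 and -2.5 in controls 1 to 4. With no array above background in either group, a difference was not detectable and the probe was not tested.

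The promoters of Aqp2 and Aqp3 are shown because both channels serve the same cell, and their windows can be set beside those of the proximal aquaporins. Aqp2 lies on the plus strand at chr15:99578806-99579055, between Faim2 and Aqp5. Aqp3 lies on the minus strand at chr4:41098184-41098433, next to Aqp7 in the gene order of that chromosome.
Aqp2: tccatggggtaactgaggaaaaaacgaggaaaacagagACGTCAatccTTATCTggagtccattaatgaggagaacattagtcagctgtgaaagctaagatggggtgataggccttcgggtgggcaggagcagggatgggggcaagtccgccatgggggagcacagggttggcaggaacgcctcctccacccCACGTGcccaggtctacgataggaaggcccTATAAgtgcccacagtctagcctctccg
Aqp3: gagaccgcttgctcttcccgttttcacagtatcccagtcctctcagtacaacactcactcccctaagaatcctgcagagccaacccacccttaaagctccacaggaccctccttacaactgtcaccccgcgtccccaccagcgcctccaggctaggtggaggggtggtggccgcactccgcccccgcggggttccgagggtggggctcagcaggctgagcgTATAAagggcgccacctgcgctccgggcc
Both hold TATAA, 28 bases before the Aqp2 start and 29 bases before the Aqp3 start; 22.8% of all windows hold it, and no other aquaporin window did. The Aqp2 window also held TGACGT (reverse complement, 212 bases before the start, in 6.47% of all windows), AGATAA (reverse complement, 202 bases) and CACGTG (58 bases, in 6.02% of all windows). CACGTG was also in the Aqp8 window, 75 bases, and the Aqp6 window, 29 bases before the start. No motifs overlapped one another in these windows. These matches describe the letters alone.

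**Figure D2:**
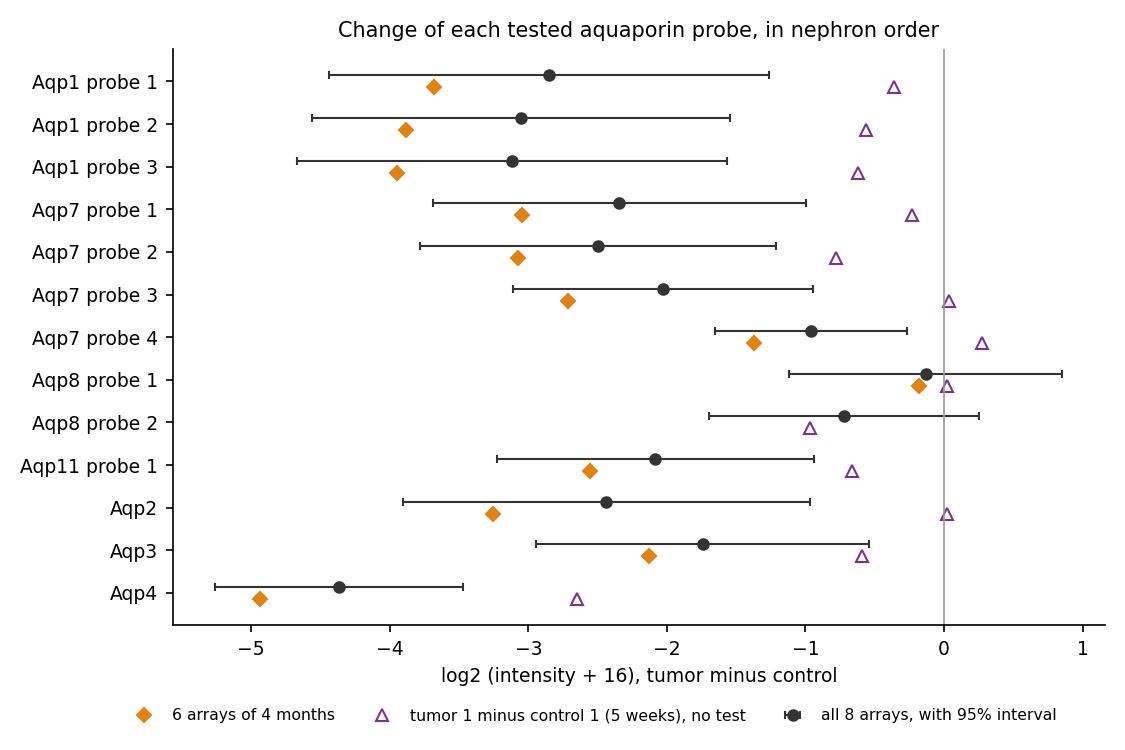
Log2 change, tumor over control, of the 13 tested aquaporin probes in order of nephron site; black points are the 8-array estimates with 95% intervals, orange diamonds the 4-month arrays alone, and open triangles tumor 1 minus control 1. The triangle lies at -2.65 for Aqp4, and those of the other probes lie between -0.96 and 0.28. The diamonds lie left of the black points for Aqp1, Aqp7, Aqp11, Aqp2, Aqp3 and Aqp4.

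The tumor effect at 5 weeks was set against that at 4 months in an interaction term, which rests on 1 pair of arrays at 5 weeks. The fall was smaller at 5 weeks by 3.32 to 3.33 on the log2 scale for the 3 Aqp1 probes (limma adjusted p 0.0684 to 0.0925), by 3.28 for Aqp2 (0.314), by 2.29 for Aqp4 (0.0732), by 1.89 for Aqp11 (0.399) and by 1.54 for Aqp3 (0.731), none of which passed. Of the 4 Aqp7 probes the third passed, with 2.74 ± 0.37 (limma adjusted p = 0.0148), and the others did not, at 2.81, 2.29 and 1.65 (adjusted p 0.115, 0.252 and 0.120). With 1 tumor and 1 control at 5 weeks, age cannot be told apart from the single animals. Of the 13 tested aquaporin probes 1 was called, against 1.52% of all tested probes, and 10 had an unadjusted p under 0.05, against 10.4% of all tested probes. With 4 added in place of 16, 3 were called: the 2 dimmest Aqp7 probes and Aqp4 (adjusted p 0.0134, 0.0231 and 0.0358). Without tumor 1 the log2 change was -3.64 for the brightest Aqp1 probe, -3.004 for the brightest Aqp7 probe, -2.60 for Aqp11, -2.99 for Aqp2, -2.19 for Aqp3 and -4.75 for Aqp4. On the 4-month arrays alone, 11 of 12 tested aquaporin probes were lower, against 12.5% of all tested probes.

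Which tumor was lowest differed between channels. For Aqp1, Aqp7 and Aqp3, tumor 4 was the lowest of the 4, at 4.36%, 2.76% and 7.07% of the control mean. For Aqp2, tumor 3 was the lowest at 3.38%, and tumor 4 was the highest 4-month tumor at 18.8%. For Aqp11, tumor 3 stood at 22.6% and tumors 2 and 4 both at 9.20%. For Aqp4, the lowest of these channels in every tumor by this measure, tumors 2 to 4 stood at 0.630%, -0.0435% and 0.0652%, all under background.

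**Figure D3:**
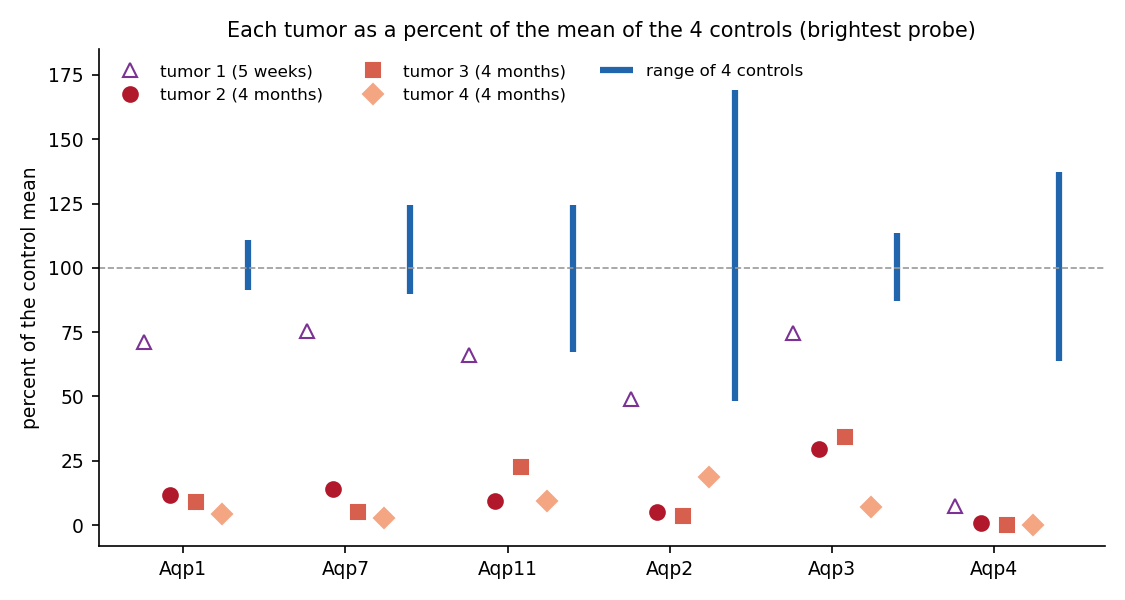
Intensity of each tumor as a percent of the control mean for Aqp1, Aqp7, Aqp11, Aqp2, Aqp3 and Aqp4 (brightest probe); the blue bar spans the 4 controls. Tumor 1 stands above tumors 2 to 4 for all 6, from 7.26% for Aqp4 to 75.5% for Aqp7.

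The changes of the 6 aquaporins were compared within arrays in 15 pairs, by an exact permutation test over 70 assignments of arrays to groups, two-sided. These 6 were the members whose brightest probe was above background on every array of at least 1 group. Aqp4 and Aqp7 met this rule through the controls alone, so for them the rule itself favours a fall. The log2 fall of Aqp4 exceeded that of Aqp7 by 2.02, of Aqp11 by 2.28, of Aqp2 by 1.93 and of Aqp3 by 2.63. In each of these 4 pairs the exact permutation p was 0.0286, the smallest the design can give, and 0.107 after adjustment over the 15 pairs, so 0 pairs passed. Aqp1 and Aqp4 differed by 1.52 (exact permutation p = 0.0571, adjusted 0.143), and by 2.90 with 4 added or 0.31 with 50 added. With 50 added the other 4 differences from Aqp4 were between 1.20 and 1.57. Since the smallest p allowed is this high, a pair that missed the threshold is not shown to have fallen alike.

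The other genes of each tubule site were read beside the aquaporins. Of 10 tested proximal tubule genes, 8 were lower and 0 higher, with a median log2 change of -3.89, against 0.35 for all 11413 tested genes. Among all tested genes 12.1% were lower and 31.9% higher. The largest falls were of Miox, which breaks down inositol (-5.05), Slc13a3, a dicarboxylate carrier (-4.87), and Slc22a6, an organic anion carrier (-4.83). The summed proximal intensity was 25566 in tumor 1, 509 to 2322 in the 4-month tumors and 32213 to 62241 in controls. The proximal count was 4 without tumor 3 or with no filter, and 5 without tumor 4, control 1 or control 3. Of 11 tested thick limb and distal genes 9 were lower (median -2.39), led by Egf, Pvalb and Umod, and 4 were with no filter.

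Principal cell genes other than aquaporins had a smaller median change. Of 9 tested, 3 were lower, 0 were higher and the median log2 change was -0.42. Hsd11b2, which shields the mineralocorticoid receptor from cortisol-like hormones, gave -1.86 ± 0.55 (limma adjusted p = 0.0235), and Scnn1a, a subunit of the sodium channel, gave -1.81 ± 0.57 (limma adjusted p = 0.0314). Kcne1, a potassium channel subunit, gave -1.36 ± 0.46 (limma adjusted p = 0.0411). The other two sodium channel subunits did not pass, Scnn1b at 0.27 and Scnn1g at -0.42, nor did the transcription factors Gata3 at 1.06 and Elf5 at 1.38. The count of 3 was 0 without tumor 4, without control 4 or with no filter, and 1 without tumor 2, tumor 3 or control 2. The count of higher genes, 0 here, was 4 with array weights, 2 without control 2 and 1 without tumor 2. The summed principal cell intensity was 1385 to 3194 in tumors and 2164 to 5019 in controls, ranges that overlap. Of 7 tested intercalated cell genes 1 was lower, the chloride and bicarbonate exchanger Slc26a4 (-2.51), and that count was 0 without any one array other than tumor 1.

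Each of the 6 aquaporins compared in pairs was then set against the mean log2 value of its site's genes on the same array. This comparison was chosen after the values were seen. The log2 change of Aqp4 minus that of the 9 principal cell genes was -4.06, and that of Aqp2 was -2.12; the mean of those genes changed by -0.31. For both, all 4 tumors lay under all 4 controls, with an exact permutation p of 0.0286, the smallest possible, and 0.0857 after adjustment over 6 members. For Aqp3 the difference was -1.43 (exact permutation p = 0.114, adjusted 0.137). The proximal aquaporins fell less than the 10 proximal genes, whose mean changed by -3.21: the differences were 0.35 for Aqp1, 0.86 for Aqp7 and 1.12 for Aqp11, adjusted exact permutation p 0.314, 0.114 and 0.129. None of the 6 passed. Aqp4 was set against the principal cell list alone, and a part of other tubule cells in its values was not tested.

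**Figure D4:**
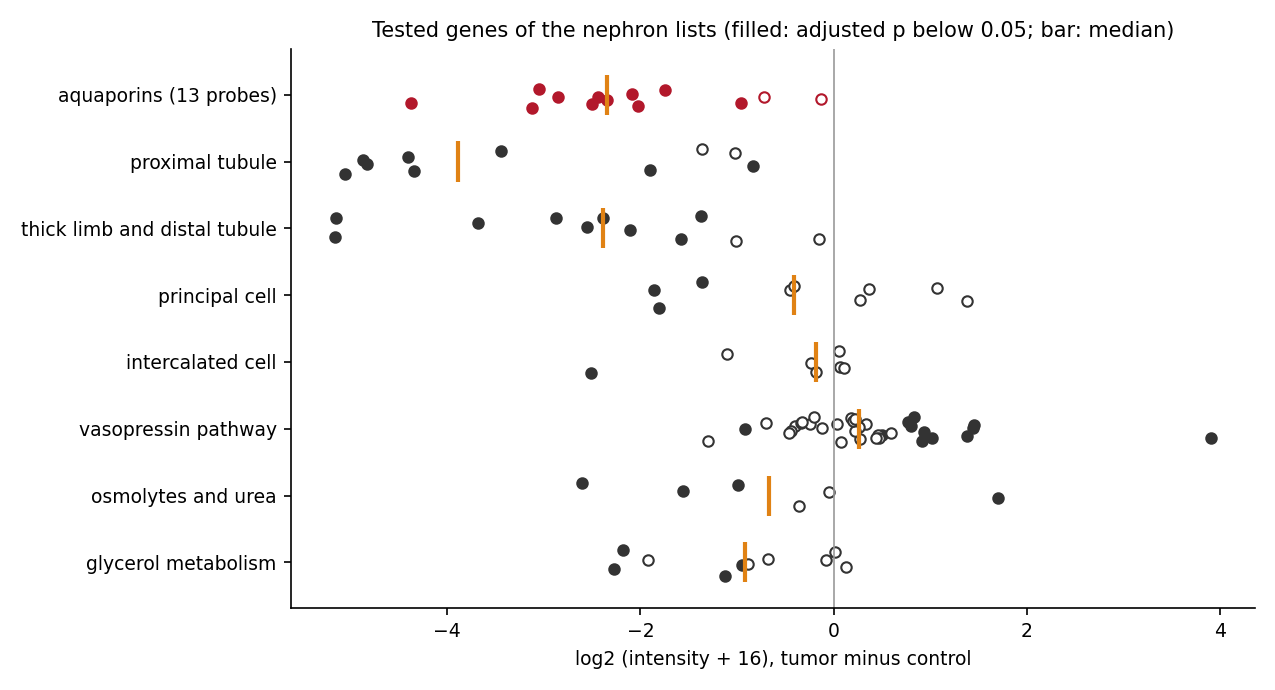
Log2 change, tumor over control, of the tested genes of each list by brightest probe; filled points passed the limma test at an adjusted p under 0.05, and the bar is the median of the list. Proximal tubule (median -3.89) and thick limb and distal genes (-2.39) lie far to the left, principal cell (-0.42) and intercalated cell genes (-0.19) nearer 0.

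Of 35 tested genes of the vasopressin and water channel trafficking pathway, 11 were higher and 1 was lower, with a median of 0.26, and the 31.9% of all genes that were higher is close to that share. Rab5c, a small GTPase of early endosomes, was the lower one (-0.92 ± 0.25, limma adjusted p = 0.0165). Creb5, a factor of the cyclic AMP response element family, was higher (1.45 ± 0.27, limma adjusted p = 0.00381). Dctn4, a dynactin subunit, had the largest rise at 3.90, with 887.0, 1324.9, 981.8 and 1083.6 in tumors 1 to 4 against 11.1, 986.0, 16.4 and 14.2 in controls 1 to 4; control 2 read like the tumors. The direction of the list depends on the scaling, with 7 higher and 4 lower after quantile normalization, 4 and 6 after scaling to the same median, and 5 and 5 after cyclic loess. The count of higher genes was 5 without tumor 3 or control 1, 6 without control 3, and 7 without tumor 2 or tumor 4. The probe of Avpr2, the vasopressin receptor, was under background on all 8 arrays.

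Water channels work together with the medullary osmotic gradient, to which urea contributes and against which the cells hold organic osmolytes. Slc14a2, the vasopressin-regulated urea transporter of the collecting duct, read -6.0, 38.9, -1.7 and 20.8 in tumors 1 to 4 and 75.8, 253.3, 80.7 and 280.5 in controls 1 to 4 (log2 change -2.61 ± 0.54, limma adjusted p = 0.00578). Nfat5, the tonicity-responsive transcription factor, was higher: 1214.0, 2008.2, 1408.5 and 1583.2 in tumors 1 to 4 and 255.2, 767.0, 351.0 and 633.2 in controls 1 to 4 (1.70 ± 0.35, limma adjusted p = 0.00540). The osmolyte carriers Slc6a12 (betaine) and Slc6a6 (taurine) were lower, with log2 changes of -1.56 and -0.99. Of 6 tested genes of this list, 3 were lower and 1 higher, beside 12.1% lower and 31.9% higher among all tested genes. Neither Slc14a2 nor Nfat5 overlapped between groups.

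Glycerol is the other cargo of Aqp7 and Aqp3. Of 10 tested glycerol metabolism genes, 4 were lower and 0 higher, with a median log2 change of -0.92. Beside these stand 12.1% lower and 31.9% higher among all tested genes. The called genes with the largest falls were Gpd1, glycerol-3-phosphate dehydrogenase (-2.27 ± 0.56, limma adjusted p = 0.0114), Dgat2, which makes triglycerides (-2.18 ± 0.45, limma adjusted p = 0.00552), and Lpin1, a phosphatidate phosphatase (-1.13 ± 0.24, limma adjusted p = 0.00630).

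Genes whose pattern over the 8 arrays was most like that of an aquaporin were ranked by the mean absolute difference of centred log2 values among 10524 genes. Closest to Aqp1 were Acot4 (0.206), Kmo (0.251) and Ranbp3l (0.253), and closest to Aqp7 were Aldh6a1 (0.177), Nox4 (0.209) and Selenbp2 (0.225). Aqp11 had the closest neighbours of all, Acadm (0.133), Oxct1 (0.152) and Tcea3 (0.167). Closest to Aqp3 were Col4a4 (0.197), Golt1a (0.202) and Pth1r (0.240). The nearest genes were farther off for Aqp2, with Slc25a42 (0.310), Gpx6 (0.357) and Gldc (0.390), and for Aqp4, with Cyp2d12 (0.349), Slc16a9 (0.370) and Nccrp1 (0.481). Acot4, Kmo, Aldh6a1, Acadm and Oxct1 encode metabolic enzymes of fatty acid, tryptophan, branched-chain amino acid and ketone body breakdown. All 8 arrays enter this measure, so the difference between tumors and controls sets most of it. It is not scaled to the size of a change. A smaller distance for Aqp11 than for Aqp4 therefore does not show a more widely shared pattern.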

How the data were processed

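Total RNA of 8 samples was measured on 8 Illumina bead arrays, 4 a group. The deposited values are linear intensities; the sources used here do not give the software. Values below 0 on every array and a mean common to all arrays show that the authors had subtracted background and scaled the arrays. The table before normalization was left out: none of its 16 columns matches a sample. Probes were named from the platform annotation, which gave 1 symbol for 23978 probes and none for 1719; 23962 matched GRCm38.p6 gene numbers, used for names and gene order. Tests used log2 of the value plus 16, negatives counted as 0. Probes with a mean under the 40th percentile were left out, which kept 15418. The noise of an array was 1.4826 times the median size of its values below 0. The test of tumors against controls was limma's lmFit and eBayes (version 3.58.1, R 4.3.3), two-sided, for each probe by itself, with Benjamini-Hochberg adjustment. For gene lists, the brightest probe stood for a gene. The age interaction used the same method, and within-array differences an exact permutation test over 70 assignments, two-sided. Both scripts were tested on simulated data. Alternatives changed the scaling, the value added, the filter, the model and the arrays used. Named were all member probes, per list the called genes with the 3 largest falls and 2 largest rises, the 3 genes nearest in pattern to a member, and Avpr2, Slc14a2, Nfat5, Xist and Kdm5d; other genes named were chosen after their values were seen. The members and lists were chosen with earlier results of these data known.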

Additional observations from a re-analysis of the deposited data

Results flagged for a closer look

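Tumor 1 stood apart from tumors 2 to 4, by a gap to the nearest of them, relative to the range of the 4 tumors, above Dixon's 95% critical value, on 5 aquaporin probes. It read 59.2 on the third Aqp7 probe, 21.9 on the dimmest Aqp7 probe, 43.9 on the brighter Aqp8 probe, 22.7 on the dimmer Aqp11 probe and 33.4 on the Aqp4 probe, and tumors 2 to 4 were at 14.3 or less on each of these. These were 5 of 30 groups of 4 arrays. The gap was taken on log2 values with negatives counted as 0, so values below 0 were equal. On the dimmer Aqp11 probe tumors 2 to 4 were all below 0, which sets the ratio at 1. All Aqp6 values were below 0, so its groups, counted in the 30, had no range. Probes of the same gene are not independent. The chance rate of about 1 in 20 therefore does not hold here. The values 21.9 and 22.7 are under the background limit of tumor 1, 27.6. Tumor 1 is also the only tumor of 5 weeks.

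On the third Aqp7 probe the interaction term of age and tumor was 2.74 ± 0.37 on the log2 scale (5 weeks minus 4 months, limma adjusted p = 0.0148). The 5-week side is tumor 1 and control 1, at 59.2 and 57.5, so age cannot be told apart from these single animals, and tumors 2 to 4 were not above background. The other Aqp7 probes did not pass, at 2.81, 2.29 and 1.65 (limma adjusted p 0.115, 0.252 and 0.120).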

How the results depend on the processing

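Over the aquaporin changes, 242 of 261 values under an alternative kept their direction and their side of the threshold, 16 lost the call, 1 gained it and 2 changed sign. The sign changes were of the brighter Aqp8 probe, never called, which ran from -0.47 to 0.14 when each array was left out, with 0.0773 without control 1 and 0.14 without control 3. The lost calls were of the dimmest Aqp7 probe, Aqp3 and Aqp2, and the dimmer Aqp8 probe was called with array weights (-1.35, limma adjusted p = 0.00462). Of the aquaporin probes, 11 were lower under all 3 other scalings and 9 to 11 with each array left out. With no filter 8 of 15 were lower, with array weights 12, and with 1 probe a gene 6 of 7. All 10 aquaporin probes above background on all arrays of a group were lower. Aqp4 and the Aqp7 probes other than the dimmest passed that filter through the controls alone, so it partly sets that count. Over all probes 1773 of 12082 were lower with that filter, 1375 of 25697 with no filter and 1387 of 11413 with 1 probe a gene. The interaction gave 3 calls with 4 added and 3 with no filter. The cause of these shifts was not tested. Over all probes, quantile normalization gave 2932 higher, cyclic loess 2639 higher and 2867 lower, array weights 7185 higher and 2768 lower, and leaving out each array 3419 to 5279 higher and 1226 to 2177 lower.

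With the replicate number as a block, 10 of 13 aquaporin probes were lower, and the dimmest Aqp7 probe was lost (-0.96, limma adjusted p = 0.0615); over all probes 4918 were higher and 1803 lower. Principal cell genes gave 1 lower and intercalated cell genes 0. Deviations of samples with the same number correlated at 0.211, 0.225, 0.128 and 0.0689. Of the 4 tumors 3 were closest to the control of their own number, and of the 4 controls 2 to their tumor. Since the last correlation is under 0.1, the numbers were not taken to pair the samples; number 1 also marks the shared age of 5 weeks.

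Differences between members that were never called changed sign: Aqp1 minus Aqp7 with loess (0.0660), Aqp1 minus Aqp2 with loess (0.13), Aqp7 minus Aqp2 with 4 added (-0.0782), Aqp7 minus Aqp11 with 50 added (0.0268), and Aqp1 minus its site's genes with 50 added (-0.11). Leaving out each array, Aqp7 minus Aqp2 ran from -0.20 to 0.62, Aqp7 minus Aqp11 from -0.54 to 0.0628, Aqp11 minus Aqp2 from -0.0973 to 0.78 and Aqp1 minus Aqp2 from -0.67 to 0.26. The alternative on signals before normalization was not run, since its columns match no sample.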

Other observations

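Of the aquaporins outside the nephron set, Aqp9 was higher in tumors, and 1 of 2 Aqp5 probes was higher on the 4-month arrays. Aqp5, a channel of glands and lung that lies between Aqp2 and Aqp6 on chromosome 15, read 17.6, 27.0, 90.2 and 223.4 in tumors 1 to 4 and 5.1, 22.1, 7.2 and 10.3 in controls 1 to 4 on its brighter probe. The log2 difference of 1.56 ± 0.57 did not pass over 8 arrays (limma adjusted p = 0.0521) and passed on the 4-month arrays (1.85, adjusted p = 0.0394); the highest values were those of tumors 3 and 4. The second Aqp5 probe did not pass (0.84 over 8 arrays, limma adjusted p = 0.139; 1.15 on the 4-month arrays, adjusted p = 0.0830). Aqp9, an aquaglyceroporin of liver and white blood cells, was higher, at 18.9, 24, 20.4 and 15.7 in tumors 1 to 4 and 9.3, -0.4, -1.6 and -2.4 in controls 1 to 4 (0.99 ± 0.21, limma adjusted p = 0.00583). The value of tumor 1 is under its background limit of 27.6. All 4 tested macrophage genes were higher in the same tumors, and their part in the Aqp9 values was not tested. Aqp12 and Mip were under background on all 8 arrays.

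On the array of tumor 1, 223 probes were below 0 while above background on the other 7 arrays, against 0 to 12 such probes on the others. None of the 15 aquaporin probes was among them. Genes of the lists were, namely Esam of the endothelial (-52.4), Prkaca of the vasopressin (-51.8) and Pnpla2 of the glycerol list (-43.2). None of these was called over the 8 arrays, so the counts of those lists include values of this kind.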
